A study of Mus musculus with 8 samples.

Results

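The 10 genes described here encode cytokines of the interleukin 6 (IL-6) family (*Il6*, *Osm*, *Lif* and *Il11*), interleukin 10 (*Il10*), the colony-stimulating factors (*Csf1*, *Csf2* and *Csf3*) and the ligand-binding receptor chains for IL-6 and IL-10 (*Il6ra* and *Il10ra*). They were picked by symbol from the 25965 genes of the expression table, and all 10 passed the filter of a mean of 0.05 RPKM or more over the 8 libraries, as did 15627 genes in all (RPKM, reads per kilobase of gene scaled to the reads of the library). The table holds total lung RNA of fetuses at E18.5 and of newborns at P1.5, from *Wfdc2*+/+ mice (controls) and from *Wfdc2*GFP/GFP mice (mutants), with 2 libraries from separate animals in each of the 4 groups. *Il6*, *Il10* and *Csf3* passed the filter through the P1.5 *Wfdc2*GFP/GFP group alone, and their mean was under 0.05 RPKM in every other group. In *Wfdc2*GFP/GFP mice a GFP sequence stands on both alleles in place of part of the first and all of the second exon of *Wfdc2*, a gene for a secreted protease inhibitor of the airway epithelium. The line was made in TT2 embryonic stem cells, passed through ICR chimeras and was crossed with CAG-Cre mice to remove the selection marker, so *Wfdc2* is absent from every cell of these animals and not from the epithelium alone. Because the genotype difference at P1.5 was known when the genes were picked, it is described below without a test, and so are changes between E18.5 and P1.5, which use the same P1.5 libraries. The genotype difference at E18.5 and the genes around the 10 were tested.

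Cytokines of the IL-6 family bind a private receptor chain and then share the signalling chain gp130, the product of *Il6st*, which activates JAK kinases and the transcription factor STAT3. IL-10, made by macrophages and lymphocytes, signals to STAT3 through IL10RA and IL10RB and restrains cytokine production by macrophages. CSF1 sustains monocytes and macrophages, GM-CSF (*Csf2*) made by the lung epithelium around birth is needed for alveolar macrophages to mature and clear surfactant, and G-CSF (*Csf3*) drives the production and release of neutrophils.

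The stretches of 250 bases before the annotated starts are shown for 3 genes that the results turn on, *Il6*, which was higher in *Wfdc2*GFP/GFP lungs at P1.5, its receptor gene *Il6ra*, which was lower there, and *Csf1*, whose libraries overlapped between genotypes. The sequences are from RefSeq (GRCm38.p6) and were found for 6 of the 10 genes. Capitals mark matches, on either strand, to GGGA, any 4 bases and CC (a κB-type motif bound by NF-κB), TGANTCA (AP-1) and TTGCNNAAT (C/EBP), motifs that were chosen with the expression results known.
*Il6*, chr5:30012864-30013113, plus strand: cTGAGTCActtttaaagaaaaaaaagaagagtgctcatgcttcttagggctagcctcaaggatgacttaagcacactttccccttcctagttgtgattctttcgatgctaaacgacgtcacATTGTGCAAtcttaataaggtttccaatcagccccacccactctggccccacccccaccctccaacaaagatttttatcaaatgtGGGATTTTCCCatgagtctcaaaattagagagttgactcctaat
*Il6ra*, chr3:89913197-89913446, minus strand: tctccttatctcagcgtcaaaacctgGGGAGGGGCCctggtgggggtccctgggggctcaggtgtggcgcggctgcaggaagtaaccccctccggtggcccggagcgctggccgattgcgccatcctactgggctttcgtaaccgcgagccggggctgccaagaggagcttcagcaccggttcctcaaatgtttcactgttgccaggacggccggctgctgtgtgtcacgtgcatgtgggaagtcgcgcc
*Csf1*, chr3:107760470-107760719, minus strand: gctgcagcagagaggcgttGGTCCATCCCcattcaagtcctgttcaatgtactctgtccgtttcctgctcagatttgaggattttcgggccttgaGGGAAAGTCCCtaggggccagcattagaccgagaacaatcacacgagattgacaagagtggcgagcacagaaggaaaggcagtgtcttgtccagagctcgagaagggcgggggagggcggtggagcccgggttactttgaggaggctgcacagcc

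The *Il6* stretch holds an AP-1 match starting 249 bases before the start, a C/EBP match starting 129 bases before it and 2 overlapping κB matches, 1 on each strand, from 44 bases before it. All 3 stretches hold a κB match, as do 17.6% of the 32851 promoter stretches of the same length, and the motif therefore did not separate *Il6* from *Il6ra* or *Csf1*. AP-1 matches were found in 6.75% and C/EBP matches in 2.11% of all stretches. A STAT-type motif, TTCNNNGAA, was searched as well and was not among the letters of these 3 windows, while 7.02% of all stretches hold it.

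Totals ran from 19457647 to 37209332 reads per library, and the limit of detection was set at 3 reads, which is 0.0806 to 0.154 RPM (reads scaled to the library total as in RPKM, without the gene length). *Wfdc2* itself had at least 8038 reads in each *Wfdc2*+/+ library and at most 12 in each *Wfdc2*GFP/GFP library. In each of the 4 groups, replicate 1 carried *Xist* and replicate 2 carried the Y-linked *Ddx3y*, so the replicate number went with sex in every group. Replicate 1 of E18.5 *Wfdc2*GFP/GFP stood apart, with 1571 reads of the club cell gene *Scgb1a1* against 17832 to 29018 in the other E18.5 libraries. Replicate 2 of P1.5 *Wfdc2*+/+ held 1030 reads of the liver gene *Alb* against 8 to 55 elsewhere. The lung identity of the samples was plain in the surfactant gene *Sftpc*, which had at least 239772 reads in every library.

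The 10 genes were weakly expressed. On a per-length scale, exonic RPKM (with the exonic bases of the gene as its length), the order of the means in E18.5 *Wfdc2*+/+ lungs was *Csf1* (3.75), *Csf2* (3.39), *Il6ra* (2.00), *Il10ra* (1.34), *Il11* (0.607), *Lif* (0.326), *Osm* (0.306), *Il10* (0.0333), *Il6* (0.0186) and *Csf3* (0.0103). Neighbours from *Csf1* down to *Il11* did not overlap between their replicates, but *Lif* (0.260 and 0.391) overlapped *Osm* (0.230 and 0.381), and the last 3 genes had at most 3 reads in a library. In P1.5 *Wfdc2*GFP/GFP lungs *Il10* reached a mean of 2.86 on this scale and stood behind *Csf1* (4.05) and *Csf2* (3.92), while *Il6ra* (0.447) had dropped to the ninth place. None of these P1.5 neighbours could be separated at the top of the list, because *Csf1*, *Csf2* and *Il10* each differed more between their 2 replicates than from each other.

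**Figure D1:**
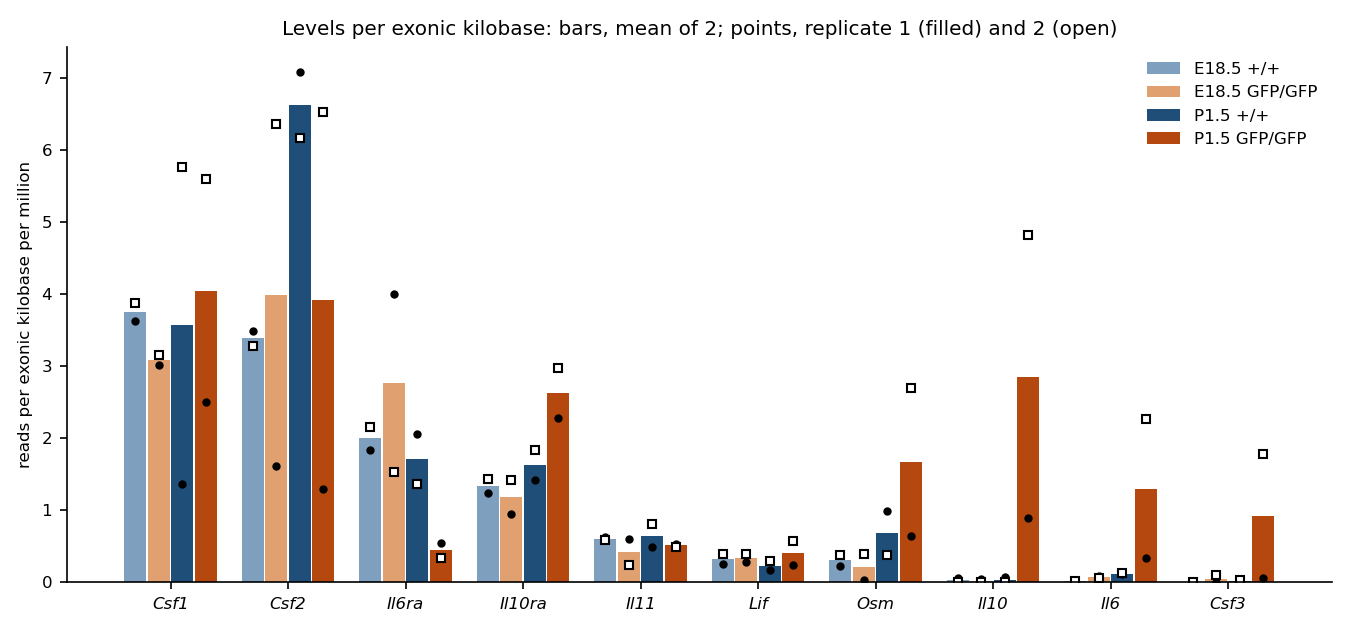
Mean level of each of the 10 genes in exonic RPKM, the reads per exonic kilobase scaled to the reads of the library (bars, linear axis from 0) in the 4 groups, with replicate 1 as filled circles and replicate 2 as open squares. *Il10*, *Il6* and *Csf3* are near 0 in 3 groups and reach means of 2.86, 1.30 and 0.926 in P1.5 *Wfdc2*GFP/GFP lungs, where the 2 replicates lie far apart.

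At P1.5, *Il6*, *Il10*, *Csf3* and *Il10ra* were higher in both *Wfdc2*GFP/GFP libraries than in both *Wfdc2*+/+ libraries, and *Il6ra* was lower in both. The other 5 genes overlapped between genotypes. A share of 12.6% of all tested genes lay higher without overlap in this comparison and 26.9% lay lower, and since the genes were picked with these libraries known, nothing is read from 4 and 1 of 10. In bulk tissue a difference in the number of cells that make a transcript cannot be told apart from a difference in transcript per cell.

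*Il6*, the founding member of its family and an inducer of the acute-phase response, lies on chromosome 5 (30013161 to 30019968, mm10). Its P1.5 counts were 6 and 6 reads (0.276 and 0.308 RPM) for *Wfdc2*+/+ and 19 and 161 reads (0.820 and 5.50 RPM) for *Wfdc2*GFP/GFP. Both mutant libraries were above both controls, but most of the reads came from replicate 2, which was 6.71-fold above replicate 1. Over the summed reads, the ratio of *Wfdc2*GFP/GFP to *Wfdc2*+/+ was 11.8 (exact 95% interval 6.58 to 23.2, for counting error alone), and the difference of the means of log2 RPKM was 2.86, or 1.49 without replicate 2 of the *Wfdc2*GFP/GFP group.

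*Osm* encodes oncostatin M, a product of neutrophils and macrophages, and *Lif* encodes leukaemia inhibitory factor. The 2 genes lie next to each other on chromosome 11 (4236420 to 4241026 and 4257557 to 4272514). At P1.5 the control lungs gave 49 and 17 *Osm* reads and the mutant lungs 34 and 179 (2.26, 0.874, 1.47 and 6.12 RPM). The *Lif* reads were 16 and 25 against 25 and 74 (0.737, 1.28, 1.08 and 2.53 RPM). In both genes replicate 2 of the *Wfdc2*GFP/GFP group was the highest of the 4 libraries and replicate 1 lay between the controls in RPM. The differences in log2 RPKM were 1.09 for *Osm* and 0.76 for *Lif*, and they were 0.06 and 0.15 without that replicate 2.

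*Il11*, a stromal cytokine linked to fibroblast activation, was the flattest of the family. Its reads numbered 22 and 33 in controls and 26 and 30 in mutants, and the mutant values lay inside the range of the controls. The difference of -0.29 in log2 RPKM was 0.13 after quantile normalization, so it has no settled sign.

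*Il6ra*, the receptor chain that confers IL-6 binding, stood against its ligand. At P1.5 the controls gave 387 and 230 reads (17.8 and 11.8 RPM) and the mutants 110 and 87 reads (4.75 and 2.97 RPM). The mutant mean was 0.261 of the control mean in RPKM, and the difference in log2 RPKM was -1.95, between -2.29 and -1.61 with a library left out. Unlike *Il6*, the 2 mutant replicates were within 1.6-fold of each other. Of the 43.8 kb of this gene (chromosome 3, 89869324 to 89913162), 19.7% are exonic, and since reads were counted over the whole span, the values include any intronic reads.

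*Il10* (chromosome 1, 131019845 to 131024974) stood at 2 and 0 reads in P1.5 controls, and P1.5 mutants reached 27 and 185 reads. The controls were at or under the limit of detection and both mutants were above it, at 1.17 and 6.32 RPM. The ratio of the summed reads was 83.3, with an exact 95% interval of 22.8 to 692 that reflects the 2 control reads. This interval covers counting error alone and leaves out the spread between animals. *Il10ra*, its receptor chain on leukocytes, had 108 and 125 reads against 185 and 305, a difference of 0.69 in log2 RPKM that stayed between 0.50 and 0.88 with a library left out.

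*Csf3* (chromosome 11, 98701263 to 98703629) was read 0 and 1 times in P1.5 controls and 2 and 74 times in P1.5 mutants. Replicate 1 of the mutant was itself within the limit of detection, so the elevated level rested on replicate 2, at 2.53 RPM. The ratio of the summed reads was 59.7, with an exact 95% interval of 10.4 to 2388 for counting error alone, without the spread between animals. Its no-overlap at P1.5 is therefore a matter of 2 reads against 1.

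*Csf1* and *Csf2* were better covered and showed no common direction. *Csf1* gave 157 and 593 reads in controls and 306 and 865 in mutants (7.23, 30.5, 13.2 and 29.6 RPM), so replicate 2 was high and replicate 1 low in both genotypes. The difference of 0.41 in log2 RPKM became -0.62 without replicate 1 and 1.45 without replicate 2 of the control group. *Csf2* gave 123 and 96 reads in controls and 24 and 153 in mutants (5.66, 4.93, 1.04 and 5.23 RPM). Its low value came from replicate 1 of the mutant alone, and without that library the difference of -1.18 was -0.02. *Csf2* shares 2068 bases of its 2.397 kb with *Gm12223* on the other strand, which had no read outside E18.5 *Wfdc2*GFP/GFP replicate 1, where it had 4.

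**Figure D2:**
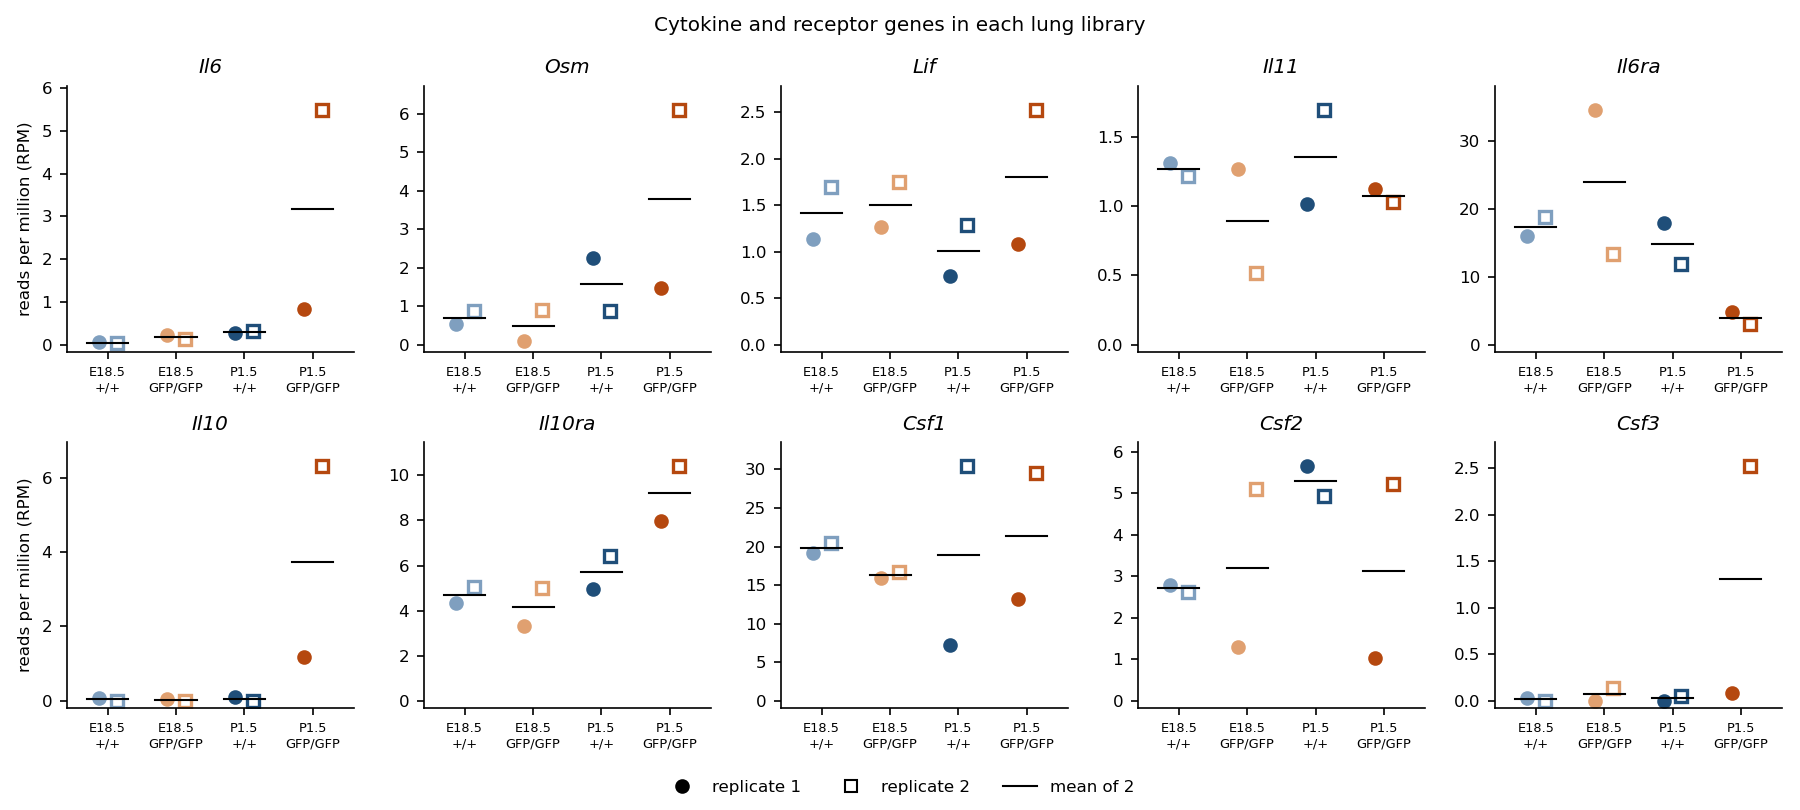
RPM (linear axes from 0) of the 10 genes in the 4 groups, with replicate 1 as filled circles, replicate 2 as open squares and the mean of the 2 as a line. Replicate 2 of P1.5 *Wfdc2*GFP/GFP is the highest library for *Il6*, *Osm*, *Lif*, *Il10*, *Il10ra* and *Csf3*, and both P1.5 *Wfdc2*GFP/GFP libraries are the lowest for *Il6ra*.

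The 2 *Wfdc2*GFP/GFP lungs at P1.5 thus differed from each other in most of these genes. Replicate 2 was above replicate 1 in 8 of the 10, with a median log2 ratio of 1.64, while over all tested genes it was above in 63.5% with a median of 0.20. *Il6*, *Il10* and *Csf3* passed the filter through this group alone, and most of their level came from replicate 2. Nothing is therefore read from these values set beside those of all genes. The ratio of replicate 2 to replicate 1 was 29.3 for *Csf3*, 6.71 for *Il6*, 5.42 for *Il10*, 5.05 for *Csf2*, 4.17 for *Osm*, 2.34 for *Lif*, 2.24 for *Csf1* and 1.31 for *Il10ra*, and it was 0.914 for *Il11* and 0.626 for *Il6ra*. Replicate 2 was above replicate 1 in 5 of the 10 in E18.5 *Wfdc2*+/+ (62.1% of all tested genes), in 6 in E18.5 *Wfdc2*GFP/GFP (51.1%) and in 6 in P1.5 *Wfdc2*+/+ (77.3%).

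At P1.5 the mutant mean was higher for 7 and lower for 3 of the 10, and the median of the log2 differences was 0.73 beside -0.20 over all tested genes. The median was 0.55 over the 8 genes with more than 3 summed reads in both groups. Differences over 4-fold upwards were found for 3 of the 10, *Il10*, *Csf3* and *Il6*, beside 0.992% of all tested genes. These 3 passed the filter through the P1.5 *Wfdc2*GFP/GFP group alone, and the 10 were picked with these libraries known. Nothing is therefore read from this share or from the medians set beside those of all genes. After median centring of the libraries, which moved the median of all genes from -0.20 to 0.00, the median of the 10 was 0.93.

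Before birth, at E18.5, none of the 10 genes differed between genotypes in limma's moderated test adjusted by the Benjamini-Hochberg method over all tested genes, where 0.0192% of all genes passed. All 10 adjusted p-values were 1.0, none of the 10 had an unadjusted p under 0.05 (4.37% of all genes did), and 0 were called by limma's voom on the recovered reads or with a replicate block. *Il6* came nearest, with 2 and 1 reads in controls and 8 and 4 in mutants. The ratio of its summed reads was 3.95 (exact 95% interval 1.07 to 21.8, for counting error alone). Its difference in log2 RPKM was 1.99 ± 0.87 (SE, 2 libraries a group, limma unadjusted p = 0.0517), with a 95% interval from -0.02 to 4.0.

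*Il10*, at 3 and 0 reads in controls and 2 and 0 in mutants, was within the limit of detection in all 4 E18.5 libraries, and a difference was not detectable at this depth. *Csf3* had 1 and 0 against 0 and 4 reads, and its ratio of 3.95 had an exact 95% interval of 0.391 to 194. Of the better-covered genes, the 95% interval for the log2 difference ran from -1.84 to 1.28 for *Csf1*, from -0.97 to 1.59 for *Il6ra* and from -1.13 to 0.73 for *Il10ra*. The widths did not follow coverage alone. *Lif* (-1.25 to 1.45) and *Il11* (-1.93 to 0.63), with fewer reads, had narrower intervals than *Csf1*. These intervals still leave room for differences of more than 1.5-fold either way.

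*Il6ra* at E18.5 had 548 and 583 reads in controls and 1286 and 389 in mutants, so the genotypes overlapped. The high value came from the replicate 1 that stood apart, and without it the difference of 0.31 was -0.38. *Osm* had 18 and 27 against 3 and 26 reads, *Csf2* 96 and 82 against 48 and 149, and *Il11* 45 and 38 against 47 and 15. In RPM the 2 mutants lay on either side of the controls for *Osm* and *Csf2*, while for *Il11* replicate 1 lay between the controls and replicate 2 below them. *Csf1* was lower in both mutants, with 659 and 638 against 593 and 488 reads (19.1, 20.5, 15.9 and 16.7 RPM), and it was the single gene of the 10 to do so beside 9.46% of all tested genes, while *Il6* was higher without overlap beside 26.5%. *Lif* had 39 and 53 against 47 and 51 reads, and *Il10ra* 149 and 157 against 123 and 146.

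**Figure D3:**
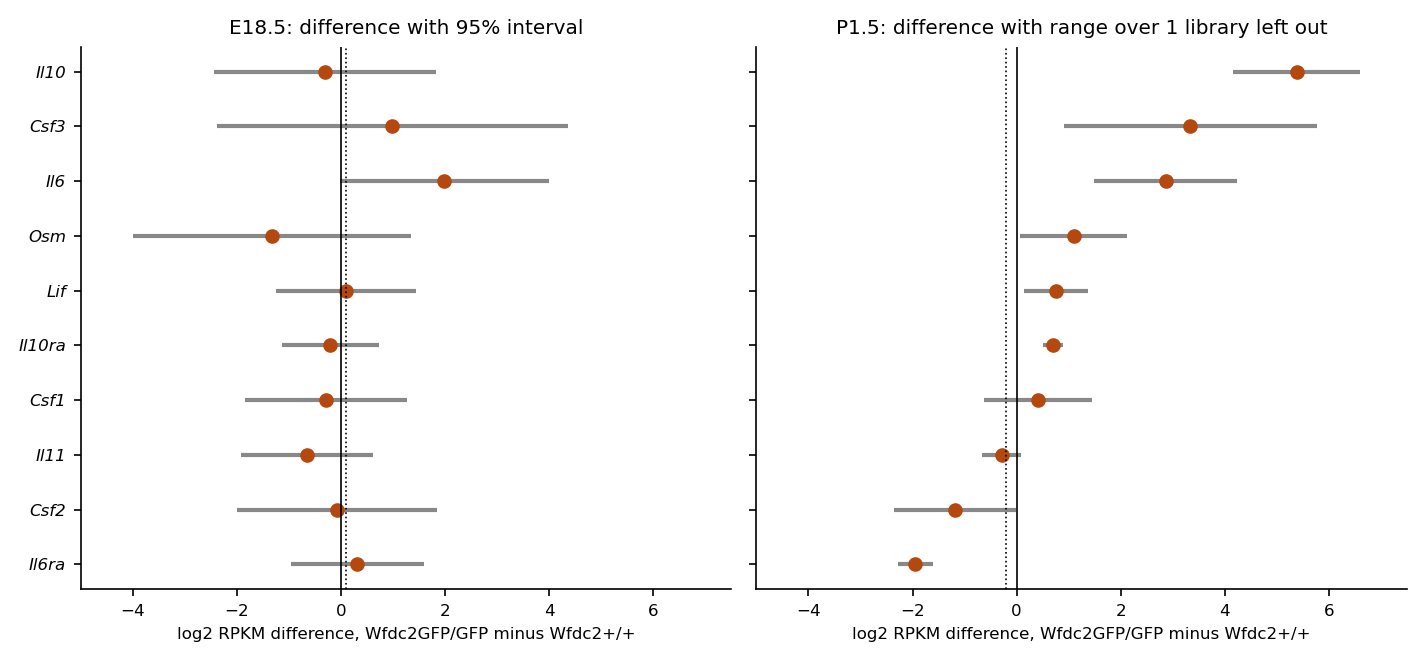
Difference of mean log2 RPKM, *Wfdc2*GFP/GFP minus *Wfdc2*+/+, for the 10 genes at E18.5 with 95% intervals from limma (left) and at P1.5 with the range of the difference over each of 4 libraries left out in turn (right). The dotted line is the median of all tested genes. All E18.5 intervals include 0, and at P1.5 the ranges of *Csf1* and *Il11* include 0, those of *Il6*, *Il10*, *Csf3*, *Osm*, *Lif* and *Il10ra* lie above 0 and those of *Il6ra* and *Csf2* below it. Libraries without a read are entered at 0.9 read, which affects *Il10* and *Csf3*.

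The genotype difference at P1.5 minus that at E18.5 sets the stages against each other. In log2 RPKM it was 0.87 for *Il6* (2.86 at P1.5 beside 1.99 at E18.5), 2.42 for *Osm*, 0.67 for *Lif*, 0.36 for *Il11*, -2.26 for *Il6ra*, 0.89 for *Il10ra*, 0.69 for *Csf1* and -1.10 for *Csf2*. Leaving out 1 library turned the sign for *Il6* (-0.50 without P1.5 *Wfdc2*GFP/GFP replicate 2), *Csf1* (-0.35 without P1.5 *Wfdc2*+/+ replicate 1), *Csf2* (0.06 without P1.5 *Wfdc2*GFP/GFP replicate 1) and *Il11* (-0.29 without E18.5 *Wfdc2*GFP/GFP replicate 2). The values fell to 0.69 for *Osm* without E18.5 *Wfdc2*GFP/GFP replicate 1 and to 0.05 for *Lif* without P1.5 *Wfdc2*GFP/GFP replicate 2, while *Il6ra* stayed between -2.95 and -1.57 and *Il10ra* between 0.59 and 1.19. *Il10* was within the limit of detection in the 6 libraries of the other groups, and *Csf3* passed it outside P1.5 *Wfdc2*GFP/GFP in 1 library alone, with 4 reads.

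From E18.5 to P1.5 in *Wfdc2*+/+ lungs, both P1.5 libraries were above both E18.5 libraries in 4 of the 10 genes, *Il6*, *Csf2*, *Osm* and, through the entry of libraries without a read at 0.9 read, *Csf3*, beside 27.4% of all tested genes, and in none were they below, beside 28.2%. *Csf2*, the GM-CSF gene, was the best covered of these, with 2.79 and 2.63 RPM at E18.5 and 5.66 and 4.93 RPM at P1.5, a ratio of mean RPKM of 1.96. *Osm* went from 0.523 and 0.866 to 2.26 and 0.874 RPM, where replicate 2 cleared the highest E18.5 value by a margin of less than 1 read. *Il6* had 3 reads at E18.5 and 12 at P1.5 over both libraries. The ratio was 6.37 (exact 95% interval 1.72 to 35.2, for counting error alone). *Csf3* had 1 read at each stage, so no fold is given. *Csf1*, *Lif*, *Il11*, *Il10*, *Il6ra* and *Il10ra* overlapped between the stages, with differences from -0.51 for *Lif* to 0.28 for *Il10ra* among the 5 above the limit of detection, and that of *Il6ra* (-0.25) was 0.02 after median centring.

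In *Wfdc2*GFP/GFP lungs, 4 of the 10 genes lay above their E18.5 values without overlap, *Il6*, *Il10*, *Osm* and *Il10ra*, beside 18.7% of all tested genes, and *Il6ra* lay below, beside 48.5%. The summed reads gave ratios of 19 (exact 95% interval 10.6 to 37.5) for *Il6*, 134 (36.7 to 1117) for *Il10* and 24.1 (9.03 to 90.7) for *Csf3*. These intervals cover counting error alone, and *Csf3* overlapped because replicate 1 had 2 reads. *Osm* was 7.82-fold and *Il10ra* 2.22-fold higher by mean RPKM, and the log2 difference of 3.48 for *Osm* was 1.75 without E18.5 replicate 1 and 5.22 without E18.5 replicate 2. *Il6ra* was 6.2-fold lower by mean RPKM, and the log2 difference of -2.51 was -1.82 without E18.5 replicate 1. *Csf2* gave -0.14, which turned to 0.54 after median centring. The median of the 10 was 0.79 beside -0.46 over all tested genes, and 0.41 over the 9 genes with more than 3 summed reads at both stages. Nothing is read from these medians, since *Il6*, *Il10* and *Csf3* passed the filter through these P1.5 libraries alone.

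None of the receptor, signalling and response genes around the 10 passed the test between genotypes at either stage. Of 77 listed pathway genes with a row in the table, 65 were tested, and at P1.5 limma called 0 of them at an adjusted p under 0.05, beside 0.0128% of all genes, with 12 at an unadjusted p under 0.05 (10.9% of all genes). At E18.5 limma called 0 as well, with 2 at an unadjusted p under 0.05. Voom and a replicate block also gave 0 calls in both comparisons, and the lists were chosen with earlier results known.

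*Il6st*, the shared gp130 chain, had 74.1 and 98.6 RPM in *Wfdc2*+/+ and 86.6 and 134 RPM in *Wfdc2*GFP/GFP lungs at P1.5, and the genotypes overlapped (log2 difference 0.33, 95% interval -0.64 to 1.31). *Osmr*, the oncostatin M receptor, had 23.1 and 23.4 against 19.2 and 33.7 RPM, and *Il11ra1*, the IL-11 receptor, 81.5 and 54.4 against 76.5 and 63.8 RPM. *Lifr*, the LIF receptor, was lower in both mutants, at 39.6 and 47.0 RPM beside 51.2 and 80.9 RPM in controls (log2 difference -0.58, limma adjusted p = 0.641). In the list of 12 receptor and signalling genes of the family, 6 had a higher and 6 a lower mean at P1.5, with a median of -0.03. *Stat3* itself had 116 and 109 against 119 and 271 RPM (log2 difference 0.68, limma adjusted p = 0.596).

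Of the listed ligands of the family outside the 10, 5 were tested. At P1.5, 4 of these 5 had a lower and 1 a higher mean in the mutant (median -0.31), and limma called 0, with 0 at an unadjusted p under 0.05. The split turned without P1.5 *Wfdc2*+/+ replicate 2, with 1 lower and 4 higher (median 0.16). *Ctf1*, cardiotrophin 1, had 11.6 and 7.25 RPM in controls and 5.53 and 5.43 RPM in mutants (log2 difference -0.74, limma adjusted p = 0.474).

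For IL-10, the second receptor chain *Il10rb* had 37.4 and 69.6 RPM in *Wfdc2*+/+ and 44.7 and 76.7 RPM in *Wfdc2*GFP/GFP lungs at P1.5, a log2 difference of 0.20 (95% interval -0.80 to 1.20). Of the 9 listed genes of the IL-10 family outside the 10, the other tested one was *Il20rb*, a receptor chain for IL-19, IL-20 and IL-24, with 4.97 and 4.11 against 8.46 and 13.2 RPM (log2 difference 1.22, limma adjusted p = 0.382). *Il20* and *Il22* had no read in any library, and *Il24* had 6 reads, all in replicate 2 of P1.5 *Wfdc2*GFP/GFP. *Il19* had 6 reads in that library and 1 in each P1.5 *Wfdc2*+/+ library.

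Among receptors for the colony-stimulating factors, *Csf1r* had 37.3 and 73.7 against 40.4 and 44.2 RPM at P1.5, *Csf2ra* 4.56 and 24.4 against 5.53 and 8.54 RPM, *Csf2rb* 10.6 and 17.7 against 17.9 and 21.4 RPM and *Csf3r* 5.80 and 17.7 against 12.2 and 12.6 RPM. *Csf2rb*, the shared chain for GM-CSF, IL-3 and IL-5, was the one of these 4 in which both mutants were above both controls, by 0.51 in log2 RPKM (limma adjusted p = 0.733). The list of 9 tested genes of this group split into 6 with a higher and 3 with a lower mean (median 0.29). Without P1.5 *Wfdc2*+/+ replicate 1 the split turned to 3 higher and 6 lower (median -0.09). *Il3ra*, with the highest mean log2 RPKM of the list, had 61.4 and 30.7 against 74.4 and 51.8 RPM. The ligands *Il3* and *Il5* of the same receptor family had 0 and at most 2 reads in a library.

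Of the 15 tested genes listed as STAT3 targets or feedback genes, 11 had a higher mean in the mutant at P1.5. The median was 0.73 beside -0.20 over all genes, but none passed the test there and 5 had an unadjusted p under 0.05. Whether STAT3 acted on these genes was not tested. *Saa3*, an acute-phase serum amyloid, had 22.5 and 3.96 RPM in *Wfdc2*+/+ and 422 and 1365 RPM in *Wfdc2*GFP/GFP lungs, a log2 difference of 6.33 (limma adjusted p = 0.217). *Lrg1*, a secreted glycoprotein of the acute-phase response, had 16.9 and 3.44 against 56.2 and 80.2 RPM, and *Timp1*, an inhibitor of matrix metalloproteinases, 15.7 and 14.2 against 44.1 and 73.6 RPM. The controls and the mutants did not overlap in these 3 genes. *Socs3*, the inhibitor that STAT3 induces to limit signalling by gp130, had 25.6 and 26.5 against 34.3 and 77.8 RPM, with a log2 difference of 0.99 ± 0.54 (SE, limma adjusted p = 0.553). *Cebpb* and *Junb*, transcription factors with the highest mean log2 RPKM of the list, had log2 differences of 0.39 and 0.77. The 4 genes with a lower mean in the mutant were *Bcl6*, *Socs1*, *Myc* and *Cish*. *Bcl6* was lower without overlap, with 24.5 and 18.1 against 3.24 and 11.6 RPM (log2 difference -1.79). Without P1.5 *Wfdc2*GFP/GFP replicate 2 the count of higher means at P1.5 was 10 of 15 and the median 0.26. At E18.5, 12 of these 15 genes had a lower mean in the mutant (median -0.43), again with 0 calls, and without the *Wfdc2*GFP/GFP replicate 1 that stood apart 7 were lower and 8 higher (median 0.04).

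Of the 8 tested genes listed as induced by IL-10 in macrophages, 6 had a higher mean in the mutant at P1.5 (median 0.47). There were 0 calls and 3 at an unadjusted p under 0.05. *Il1rn*, the IL-1 receptor antagonist, had 3.5 and 6.68 RPM in *Wfdc2*+/+ and 20.2 and 24.2 RPM in *Wfdc2*GFP/GFP lungs (log2 difference 2.19, limma adjusted p = 0.351). *Slamf9*, a receptor of the SLAM family on myeloid cells, had 2.62 and 2.78 against 12.5 and 11.8 RPM, and its mutant replicates were nearly equal. *Hmox1*, heme oxygenase 1, and *Nfil3* overlapped between genotypes, with log2 differences of 0.56 and 0.39. *Etv3* and *Cd163* had a lower mean in the mutant, and *Cd163* had 5.16 and 5.65 against 3.63 and 2.70 RPM.

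Of the 14 tested genes listed as dependent on GM-CSF in alveolar macrophages, 9 had a higher mean in the mutant at P1.5 (median 0.57), with 0 calls. *Pparg*, the transcription factor through which GM-CSF matures these cells, had 3.91 and 8.84 RPM in *Wfdc2*+/+ and 3.58 and 5.84 RPM in *Wfdc2*GFP/GFP lungs (log2 difference -0.36, 95% interval -1.65 to 0.92, and 0.12 after quantile normalization). *Fabp5*, a fatty acid-binding protein, had 287 and 187 against 345 and 376 RPM, and *Car4*, a carbonic anhydrase, 87.1 and 142 against 179 and 176 RPM. Both are also expressed outside macrophages in lung. The genes of this list with a lower mean in the mutant were *Abcg1*, *Chi3l3*, *Fabp4*, *Krt79* and *Pparg*. *Abcg1* was lower without overlap, with 14.87 and 51.50 RPM in controls and 10.02 and 12.89 RPM in mutants. So was *Krt79*, with 2.99 and 2.52 against 1.86 and 2.43 RPM, while *Chi3l3*, *Fabp4* and *Pparg* overlapped between genotypes.

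**Figure D4:**
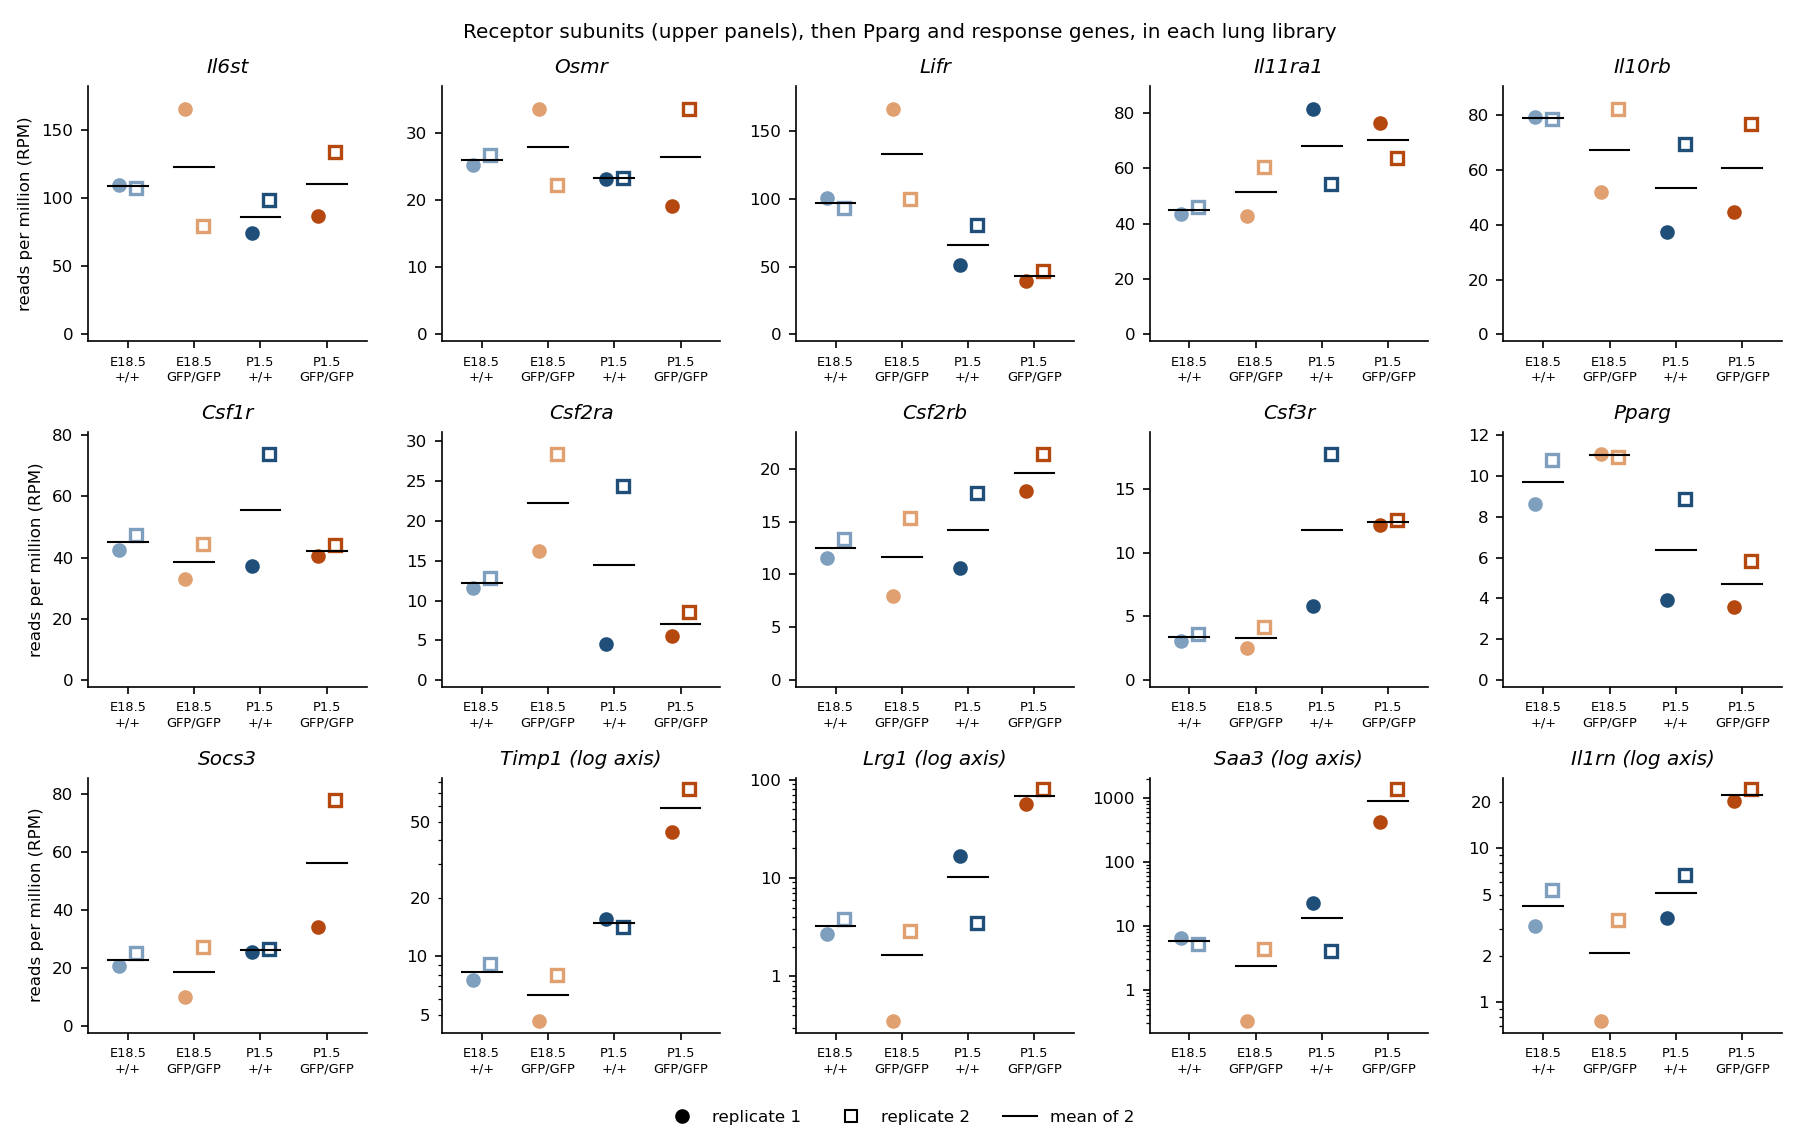
RPM of 9 receptor subunits, of *Pparg* and of 5 response genes in the 4 groups, with replicate 1 as filled circles, replicate 2 as open squares and the mean as a line. Axes are linear from 0 unless marked as log. The receptor chains overlap between genotypes at P1.5 except *Lifr* and *Csf2rb*, while *Timp1*, *Lrg1*, *Saa3*, *Il1rn* and *Socs3* lie higher in both P1.5 *Wfdc2*GFP/GFP libraries.

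From E18.5 to P1.5 in *Wfdc2*GFP/GFP lungs, limma called 9 of the 65 pathway genes, beside 4.55% of all genes (1.61% higher and 2.94% lower), and 26 had an unadjusted p under 0.05, beside 35.6%. The lists were chosen with earlier results of these data known, so nothing is read from 9 of 65 beside the share of all genes. *Saa3* rose by 9.33 in log2 RPKM (limma adjusted p = 0.021), *Lrg1* by 6.06 (0.0359), *Il1rn* by 3.79 (0.0427), *Marco*, a scavenger receptor of alveolar macrophages, by 3.67 (0.0331), *Timp1* by 3.23 (0.0205), *Slamf9* by 2.92 (0.0359), *Krt79*, an epithelial keratin, by 2.40 (0.039) and *Il4ra*, the IL-4 receptor chain, by 1.63 (0.0432). *Cntfr*, the receptor for ciliary neurotrophic factor, fell by 2.18 (0.0455). Without E18.5 *Wfdc2*GFP/GFP replicate 1, or without either P1.5 *Wfdc2*GFP/GFP library, 0 of the 65 were called, and without either E18.5 *Wfdc2*+/+ library 2 were. The count was 21 without E18.5 *Wfdc2*GFP/GFP replicate 2, 26 without either P1.5 *Wfdc2*+/+ library, 4 by voom and 28 with a replicate block.

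In *Wfdc2*+/+ lungs limma called 0 of the 65 between the stages, beside 0.0576% of all genes, with 6 at an unadjusted p under 0.05 (11.8% of all genes), 0 by voom and 1 with a replicate block. Without P1.5 *Wfdc2*+/+ replicate 2 the count was 7. *Marco* had 3.4 and 4.33 RPM at E18.5 and 41.2 and 28.4 RPM at P1.5 there, a log2 difference of 3.16 (limma adjusted p = 0.103) beside 3.67 in mutants. *Krt79* had 0.436 and 0.449 RPM at E18.5 and 2.99 and 2.52 RPM at P1.5, a log2 difference of 2.63 (limma adjusted p = 0.0824) beside 2.40 in mutants. For *Saa3* (0.71), *Il1rn* (0.24) and *Slamf9* (-0.13) the control libraries of the stages overlapped, and the differences in mutants minus those in controls gave 8.62, 3.54 and 3.05. In that test of the difference limma called 0 of the 65, as it did of all genes (0.0%), with 12 of the 65 at an unadjusted p under 0.05 (10.2% of all genes) and 0 by voom.

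Genes most like 4 of the 10 in their log2 RPKM over the 8 libraries were taken from 14309 genes with at least 20 reads in a library. For *Il10* they were *Ndufv2* (Pearson r = 0.967), *Cxcl1* (0.966), *Saa2* (0.965), *Tnfrsf9* (0.961) and *Aqp3* (0.956). For *Il6* they were *Myl2* (0.970), *Rhou* (0.969), *Snrpd1* (0.966), *Myom1* (0.962) and *Lrrfip2* (0.961), and for *Csf3* *Relt* (0.981), *Art3* (0.974), *Spag7* (0.966), *Pdhb* (0.961) and *Hoxd8* (0.957). *Csf1* was most like *Evi2b* (0.990), *Calm2* (0.982), *Sh3bp2* (0.974), *Chmp3* (0.970) and *Ly86* (0.969). With 8 libraries that share depth and scale within each column, and with entries at 0.9 read in *Il10* and *Csf3*, such coefficients are descriptions. Among the 10, *Il6* and *Il10* had r = 0.880 over the 8 libraries, *Il6* and *Csf3* 0.825, *Il10* and *Il10ra* 0.812 and *Il10* and *Il6ra* -0.879.

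Markers of the cells that make or answer these cytokines are given beside them, and their part in the levels of the 10 genes was not tested. The 12 neutrophil markers summed to 58.5 to 97.7 RPM in the E18.5 libraries and at P1.5 to 1906 and 676 RPM in *Wfdc2*+/+ and 1474 and 942 RPM in *Wfdc2*GFP/GFP, with 6 higher and 6 lower between genotypes and 0 called. The 10 macrophage and monocyte markers summed to 682 and 1229 against 1267 and 1311 RPM at P1.5, with 7 higher and 3 lower and 0 called. *Lyz2* alone made up most of each sum, with 542 and 1002 against 1115 and 1110 RPM. The sums therefore follow this 1 gene and are not read as a number of cells. Without P1.5 *Wfdc2*+/+ replicate 1, 4 of the 10 were higher and 6 lower (median -0.18). *Mertk* of that list, a receptor for the uptake of dying cells, had the largest difference, at 495 and 793 against 211 and 255 reads (log2 -1.77, limma adjusted p = 0.310), in the direction of *Il6ra*.

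The 9 lymphocyte markers summed to 7.87 and 31.2 against 11.3 and 28.3 RPM, with 2 of 6 tested higher and 4 lower, *Cd79a* being the most abundant and *Ms4a1* having the largest difference (-1.32). Without P1.5 *Wfdc2*+/+ replicate 2, 5 of the 6 were higher and 1 lower. The 6 mast cell and basophil markers summed to 47.8 and 90.5 against 70.2 and 92.0 RPM, with 4 of 5 tested higher, and *Mcpt8* of basophils had 13 and 84 against 196 and 124 reads. Without P1.5 *Wfdc2*+/+ replicate 1, 2 of the 5 were higher and 3 lower. The 12 markers of lung epithelium and stroma had 8 higher and 4 lower, led in difference by *Sftpa1* (1.73), and the 6 tested of liver, heart and thymus had 3 higher and 3 lower, led by *Apoa1* (-4.20). None of these was called between genotypes at P1.5. The defining neutrophil gene *Ly6g* had 4 and 19 reads in controls and 0 and 25 in mutants, and the mast cell receptor gene *Ms4a2* at most 3 reads in a library.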

How the data were processed

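Total lung RNA (Isogen, DNase-treated) had been made into directional NEBNext libraries and sequenced on a HiSeq2500 or GAIIx, and which library ran on which instrument is not given in the sources used here. Per the labels and the methods, the authors used CASAVA 1.8, trimmed the reads with Trim Galore 0.4.0, mapped them to mm10 with TopHat 2.1.1 and used SeqMonk for counting. The authors deposited log2 RPKM values, which take the whole gene span as length and enter 0.9 read for a gene without reads. Whether the counting used strand is not stated.

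Reads were recovered as whole numbers (100% of the low values were whole within 0.02). Exon lengths came from GENCODE M21. The log2 RPKM of 15627 genes went into limma 3.58.1 (R 4.3.3, trend, 1 mean per group, 4 residual degrees of freedom), with two-sided p-values, Benjamini-Hochberg adjustment over all of them and a threshold of 0.05. Intervals on read ratios are exact binomial ones and cover counting error only, since reads without molecular identifiers need not be independent molecules. Tables and figures used Python 3.11.15, pandas 2.3.3, scipy 1.17.1 and matplotlib 3.10.9. The fits were tested on simulated data.

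The 10 genes, the pathway and marker lists and the motifs were chosen with earlier results of these data known. Named were all 10, every called gene of a pathway list (up to 4 per list and comparison), the 2 genes with the highest mean log2 RPKM of a list, the receptor chains, *Socs3* and *Pparg*, for each marker list the gene highest in mean log2 RPKM and that with the largest P1.5 difference, and the 5 genes most like *Il6*, *Il10*, *Csf1* and *Csf3*. *Ly6g*, *Ms4a2*, *Scgb1a1*, *Alb*, *Sftpc*, *Gm12223*, the sex-linked genes and the undetected interleukins were named after their values were seen. So were the genes with a lower P1.5 mean in the lists for STAT3, IL-10 response and GM-CSF. A gene that the rule names is not reported here. *Cebpd* was on a list and was not matched to a row. The study used duplicate animals that differed in sex in every group, so the spread between them includes any difference of sex. The p-values rest on that spread, pooled over the groups and moderated across genes. Alternatives were pseudocounts of 0.1 and 1 RPKM, no filter or 0.5 RPKM, median centring, quantile normalization, the replicate block, voom, the 4 libraries of a comparison alone and each library left out.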

Additional observations from a re-analysis of the deposited data

Results flagged for a closer look

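In 10 of the 65 tested pathway genes (15.4%, beside 12% or 1876 of the 15627 genes tested), and in none of the 10 cytokine and receptor genes, both libraries of a group lay on one side of their controls in 1 comparison and on the other side in the matching comparison. These opposite directions were picked out untested, and limma's test of the difference of the genotype effects called none of them. The genotype difference was upwards at P1.5 and downwards at E18.5 for *Saa3*, with a difference between the stages of 8.62 in log2 RPKM, *Slamf9* (3.05), *Arg2*, an arginase (1.99), *Bcl3*, a cofactor of NF-κB (1.79), *Fgl2*, a fibrinogen-like protein (1.16), and *Cd36*, a fatty acid transporter (1.16). At E18.5, the *Wfdc2*GFP/GFP replicate 1 that stood apart was the lower mutant library for all of these but *Fgl2*. Replicate 2 had 2.74 RPM for *Slamf9* beside 2.76 in the lower control, 5.09 beside 5.33 for *Arg2* and 4.31 beside 5.10 for *Saa3*. The genotype difference was downwards at P1.5 and upwards at E18.5 for *Cntfr* (-2.31), the kinase gene *Tyk2* (-1.90) and *Il27ra*, the receptor for IL-27 (-1.85). From E18.5 to P1.5, *Bcl6*, a transcriptional repressor, was higher at P1.5 in both *Wfdc2*+/+ libraries and lower in both *Wfdc2*GFP/GFP libraries (-1.85), and *Cd36* showed the opposite (1.16).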

How the results depend on the processing

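With 2 animals a group and 3 genes near the limit of detection, depth and the few animals limit the 10 genes. The count of 0 of the 10 genes called at E18.5 stayed 0 under every alternative run, as did the 0 pathway genes called at P1.5, at E18.5 and in the difference of the genotype effects. The genes of the 10 with *Wfdc2*GFP/GFP above *Wfdc2*+/+ at P1.5 numbered 4, or 0 of the 2 genes left by a filter of 0.5 RPKM, and 4 to 7 with a library left out (7 without *Wfdc2*+/+ replicate 2). Those above their E18.5 values were 4 in *Wfdc2*+/+, 1 of 2 with that filter and 5 to 7 with a library left out (7 without P1.5 replicate 1), and 4 in *Wfdc2*GFP/GFP, 0 of 2 with that filter, 8 after median centring and 4 to 8 with a library left out (8 without P1.5 replicate 1). Leaving a library out can only keep or raise such a count of genes without overlap, so these ranges do not test whether the counts hold. Same-numbered libraries deviated together with r = 0.23 at E18.5 and 0.21 at P1.5 over 15627 genes, but the labels do not say that the number marks a litter or day. With the replicate number as a block, pathway calls from E18.5 to P1.5 were 28 in place of 9 in *Wfdc2*GFP/GFP and 1 in place of 0 in *Wfdc2*+/+, and the block moved no other count. The 9 became 5 without a filter, 18 after median centring, 4 by voom, 23 from the comparison alone and 0 to 26 with a library left out, and the 0 became 1 without a filter and 0 to 7 with a library left out (7 without P1.5 *Wfdc2*+/+ replicate 2). The causes were not tested. Left-out libraries are named where the sign of an E18.5 difference turned, after the range, for *Csf2* (0.0417 with a pseudocount of 1 RPKM, -1.07 to 0.91 with a library left out, 0.91 without *Wfdc2*GFP/GFP replicate 1), *Lif* (-0.11 after median centring, -0.20 to 0.39 with a library left out, -0.20 without *Wfdc2*+/+ replicate 1, -0.14 without *Wfdc2*GFP/GFP replicate 2), *Il10* (-1.10 to 0.49, 0.49 without *Wfdc2*+/+ replicate 1, 0.10 without *Wfdc2*GFP/GFP replicate 2), *Csf3* (-0.26 to 2.24, -0.26) and *Il11* (-1.30 to 0.00092, 0.00092) without *Wfdc2*GFP/GFP replicate 2, and *Osm* (-3.06 to 0.40, 0.40), *Il6ra* (-0.38 to 1.0, -0.38) and *Il10ra* (-0.50 to 0.10, 0.10) without *Wfdc2*GFP/GFP replicate 1. Of the other values under alternatives, 722 kept their side and 66 moved.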
